A study of Mus musculus with 4 samples.

Results

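The receptors for the Fc part of IgG were followed through single-cell RNA counts of mouse bone marrow. The 6 genes, taken by name out of 31053 genes counted, were the activating receptors Fcgr1, Fcgr3 and Fcgr4, the inhibitory receptor Fcgr2b, the signaling chain Fcer1g and the neonatal Fc receptor Fcgrt. Marrow of femur and tibia, freed of red cells by lysis, was loaded for 10x Genomics 3′ v3 libraries, 1 library per genotype. All mice were on the C57/B6 background and 12 months old. The library labelled TWT was wild type for IL6, mDia1 and miR146a. The library labelled IL-6 KO lacked IL6, DKO lacked mDia1 and miR146a, and TKO lacked all 3 genes. These are knockouts of the whole animal, so blood cells, stroma and every other tissue of a mouse carried them. The sources used here do not give how many mice each library pooled. With 1 library per genotype no difference between genotypes could be tested, and every interval given is a 95% exact interval that covers counting error only.

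The libraries held 8423, 8640, 10866 and 9013 barcodes as labelled TWT, IL-6 KO, DKO and TKO, with 19 to 36 barcode sequences shared between any pair. Barcodes with 500 to 4000 genes and no more than 15% of UMIs from mitochondrial genes passed, which left 6794, 7476, 9627 and 7560 cells with 43211935 to 76555934 UMIs in all. The median cell was deepest in DKO, at 7053 UMIs against 4585.5 to 4795 in the others. Over all barcodes Diaph1, which encodes mDia1, was at 163 and 178 CPM in TWT and IL-6 KO and at 11.4 and 12.4 CPM in DKO and TKO (CPM, a gene's UMIs scaled to all UMIs in the summed cells). Il6 went against its labels, with 606 and 587 UMIs in the libraries labelled IL-6 KO and TKO and 52 and 20 in TWT and DKO. The sources used here do not give which part of Il6 was deleted, and a 3′ count may lie outside it, so Il6 checks no label, and miR-146a is not counted by this method. The library labelled IL-6 KO also held 49030 UMIs of Xist against 1 to 7 in the other libraries, and 1 UMI of 4 Y-linked genes against 7533 to 9955. Below, IL-6 KO and TKO therefore mean the libraries so labelled.

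IgG bound to a target is read by leukocytes through these receptors. FcγRI, FcγRIII and FcγRIV pair with the Fc receptor γ chain, encoded by Fcer1g, whose immunoreceptor tyrosine-based activation motif (ITAM) recruits the kinase Syk and starts phagocytosis and cytokine release. FcγRIIb carries an inhibitory motif (ITIM) that recruits the phosphatase SHIP-1, and a phagocyte's answer to an immune complex depends on the activating receptors it holds relative to this inhibitory one. FcRn, the product of Fcgrt with β2-microglobulin, works inside the cell, where it binds IgG in acidic endosomes and saves it from breakdown. In mice, B cells are known for FcγRIIb as their only classical IgG receptor, NK cells for FcγRIII and neutrophils for FcγRIII and FcγRIV.

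In the mouse genome (GRCm38) 4 of the 6 genes lie near each other on chromosome 1. These are Fcgr2b on the minus strand at chr1:170958617-170976547, Fcgr4 on the plus strand at chr1:171018920-171029761, Fcgr3 on the minus strand at chr1:171051174-171064935 and Fcer1g on the minus strand at chr1:171229572-171234365. Fcgr1 lies on the minus strand at chr3:96282909-96293969 and Fcgrt on the minus strand at chr7:45092990-45103851. Counts at the 3′ end can mix near-identical genes. Of 1467 words of 50 bases from the last 500 bases of Fcgr2b transcripts, 33 (2.249%) were also found in Fcgr3, and the other 5 genes shared none with another gene. The antisense genes Gm38204, at Fcgr2b, and Gm45669, at Fcgrt, are counted on their own in the files.

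The 250 bases before the start site are shown for the 4 receptors whose levels the results turn on, from RefSeq (GRCm38.p6), 5′ to 3′ on the gene's strand. Capitals mark matches on either strand to a PU box, the purine-rich GAGGAA bound by PU.1, the product of Spi1, or to a GAS element, TTCNNNGAA, the gamma-activated sequence of interferon-responsive promoters. The windows are chr3:96293970-96294219 on the minus strand for Fcgr1, chr1:171059404-171059653 on the minus strand for Fcgr3 (the first of its start sites), chr1:171018676-171018925 on the plus strand for Fcgr4 and chr1:170976072-170976321 on the minus strand for Fcgr2b.
Fcgr1: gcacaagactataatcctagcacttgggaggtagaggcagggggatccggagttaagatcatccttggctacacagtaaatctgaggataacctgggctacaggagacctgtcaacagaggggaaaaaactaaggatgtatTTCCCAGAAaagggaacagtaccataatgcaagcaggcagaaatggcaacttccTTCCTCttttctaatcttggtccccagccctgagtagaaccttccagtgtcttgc
Fcgr3: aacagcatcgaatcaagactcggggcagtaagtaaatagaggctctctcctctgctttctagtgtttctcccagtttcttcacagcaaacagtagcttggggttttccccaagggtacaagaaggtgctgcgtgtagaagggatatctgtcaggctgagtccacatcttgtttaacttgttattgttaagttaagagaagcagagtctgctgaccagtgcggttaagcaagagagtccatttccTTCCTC
Fcgr4: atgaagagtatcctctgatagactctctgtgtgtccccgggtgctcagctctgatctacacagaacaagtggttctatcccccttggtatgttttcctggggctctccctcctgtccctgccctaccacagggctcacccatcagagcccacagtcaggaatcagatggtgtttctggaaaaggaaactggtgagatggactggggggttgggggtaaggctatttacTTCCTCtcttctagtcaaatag
Fcgr2b: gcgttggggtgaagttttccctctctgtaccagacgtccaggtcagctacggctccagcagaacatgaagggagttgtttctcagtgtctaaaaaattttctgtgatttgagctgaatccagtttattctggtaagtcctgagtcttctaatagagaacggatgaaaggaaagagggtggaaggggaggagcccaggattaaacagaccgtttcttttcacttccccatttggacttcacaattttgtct

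Each of the 3 activating receptors held 1 PU box in this window, 55 bases before the start for Fcgr1, 6 for Fcgr3 and 22 for Fcgr4. Fcgr1 alone among the 6 genes held a GAS element, TTCCCAGAA, 109 bases before the start. No match to either set of letters was found in the windows of Fcgr2b, Fcer1g and Fcgrt. Of 27025 RefSeq promoters of this length, 23.13% held a PU box and 7.179% a GAS element, and a match is a description of the letters, not of binding.

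Over all cells the 6 genes were at their highest in DKO. Fcgr4 stood apart from the rest of the family, at 29.4 CPM (27.8 to 31.1, 1272 UMIs) in TWT, 41.6 in IL-6 KO as labelled, 219 (216 to 223, 16799 UMIs) in DKO and 38.9 in TKO. The DKO level was 7.45-fold (7.04 to 7.90) that of TWT and 5.64-fold (5.38 to 5.92) that of TKO, while TKO was 1.32-fold TWT. Fcgr2b was at 49.7 CPM (47.6 to 51.8), 44.7, 106 (104 to 108) and 44.2 in the same order, 2.14-fold (2.04 to 2.24) in DKO over TWT and 2.40-fold (2.29 to 2.52) over TKO. The activating and the inhibitory receptor were thus both above 2-fold, Fcgr4 by far the more.

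Fcer1g, the most abundant of the 6, was at 1317 CPM (1306 to 1328), 1447, 2828 (2816 to 2840) and 1509, so DKO was at 2.15 times TWT (2.13 to 2.17) and 1.87 times TKO (1.86 to 1.89). Fcgr3 was at 133 CPM (129 to 136), 182, 235 (232 to 239) and 178, so that DKO was 1.77-fold TWT (1.72 to 1.83) and 1.32-fold TKO (1.29 to 1.36). IL-6 KO and TKO also stood above TWT for Fcgr3, at 1.37-fold and 1.34-fold. The low-expressed Fcgr1 was at 6.97 CPM (6.20 to 7.80), 5.87, 19.3 (18.4 to 20.3) and 8.61, and Fcgrt at 11.5 (10.5 to 12.5), 9.40, 29.9 (28.7 to 31.2) and 11.9. Their DKO to TWT ratios were 2.78 (2.45 to 3.15) and 2.61 (2.37 to 2.88), at levels below the 50 CPM floor that a call needed.

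A gene was called when it was at least 2-fold apart, and reached 50 CPM in 1 of the 2 libraries and 30 UMIs in their sum. In DKO over TWT, 4 of the 6 genes passed the floor and 3 were called higher (Fcgr2b, Fcgr4 and Fcer1g), where 6.57% of the 2677 genes measured were called higher and 5.42% lower. With genes above 1% of the UMIs of a library left out of the total, only Fcgr4 kept its call, and over all genes the calls went from 176 higher and 145 lower to 148 and 320, while with median-of-ratios size factors they were 292 and 76. In DKO over TKO, which share the DKO library with the first comparison, 2 of 4 genes were called higher (Fcgr2b and Fcgr4), against 5.52% of 2679 genes higher and 5.71% lower. In DKO over IL-6 KO the same 2 genes of 4 were called higher, against 7.43% and 7.02%. In TKO over TWT and in IL-6 KO over TWT none of the 2 genes that passed the floor was called, with 0.161% and 0.206% of all genes called higher and 0.726% and 0.247% lower. Fcgr2b and Fcgr4 reached 50 CPM in DKO alone (49.7 and 29.4 CPM in TWT), so the floor kept them out of these comparisons. Counts of calls with and without DKO are therefore not alike.

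**Figure D1:**
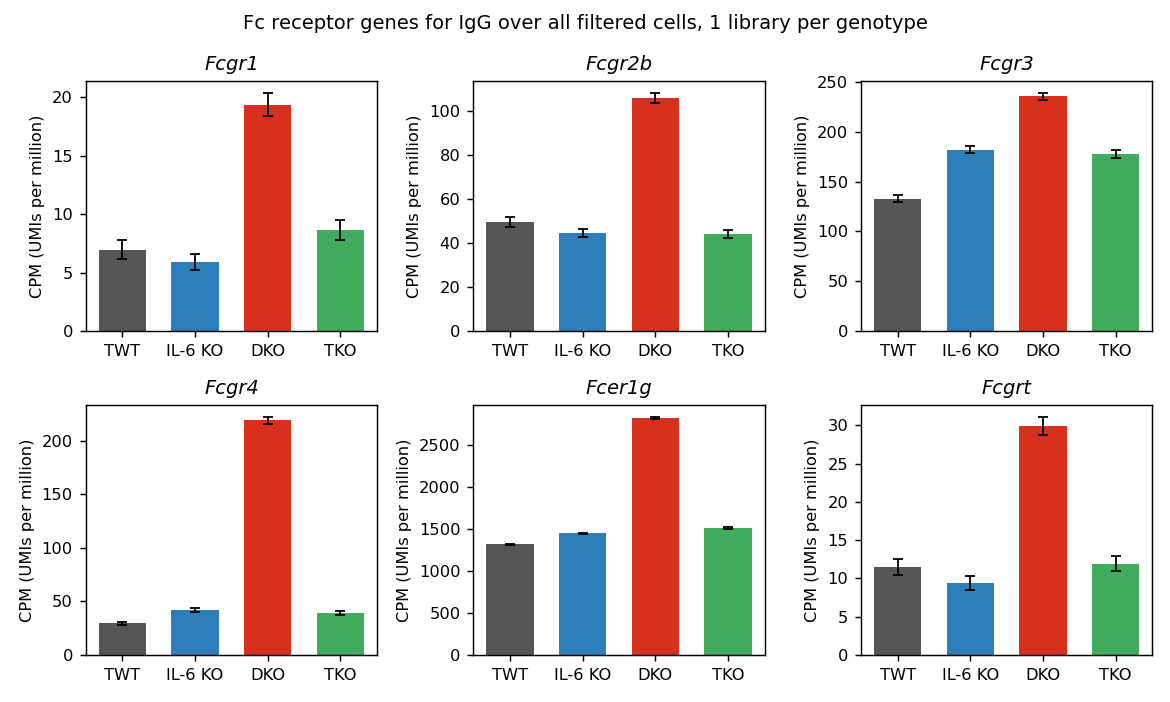
CPM of each of the 6 genes (vertical axis, 1 panel per gene, from 0) over all filtered cells of the 4 libraries as labelled, with bars for the level and error bars for the 95% exact Poisson interval, which covers counting error only. DKO is the highest bar in every panel, and for Fcgr4 it stands at 219 CPM against 29.4 to 41.6 in the other libraries.

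Sums over whole marrow cannot tell more cells of a type from more RNA per cell, so the cells were sorted into 17 classes by marker genes, none of them an Fc receptor. A class held 88.6% to 95.1% of the cells of a library, and cells that passed gates of several lineages (7.93% in DKO, 3.28% to 4.03% in the others) were left out. In each class most of its listed markers were at least 2-fold above the other cells, such as 11 of 12 for the monocyte class and 11 of 12 for the non-classical class. The gates read 8 and 7 of these genes, so the counts were partly set by the gating and are no separate support for the class names. The macrophage class, gated on the complement genes C1qa, C1qb and C1qc, had 9 of its 14 markers and was led by those genes with Cxcl13, Cadm1 and Adamdec1. The myeloid makeup differed widely between libraries. Non-classical monocytes, the patrolling cells marked by Treml4 and Ace, numbered 40, 72, 1343 and 115 cells as labelled TWT, IL-6 KO, DKO and TKO, macrophages 29, 17, 617 and 23, monocytes 508, 492, 1603 and 561, and mature neutrophils 1567, 1911, 437 and 1715. The 17 macrophages of IL-6 KO were below the minimum of 20 cells for a comparison and their values are given only beside the others. Macrophage values outside DKO rest on few and shallow cells, with a median of 1281 to 1669 UMIs per cell against 6255 in DKO.

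To set the cell numbers beside the levels, TWT levels per class were combined with the class makeup of DKO, and the reverse. For Fcgr4, of the 7.45-fold total, the makeup alone gave 2.25-fold and the levels alone 2.24-fold. For Fcgr1 the makeup gave 3.84-fold and the levels 1.05-fold, and for Fcgrt 2.89-fold and 1.18-fold. Fcgr3 was the other way round, at 1.11-fold from the makeup and 1.53-fold from the levels. Fcgr2b took 1.75 and 1.15 and Fcer1g 1.40 and 1.44. Against TKO the makeup gave 3.57-fold and the levels 0.840-fold for Fcgr1, and 2.34-fold and 1.62-fold for Fcgr4. The 2 values need not multiply to the total, since a class can differ in both number and level. A class also enters with 1 level even where it joins unlike cells. In clusters, described below, 55.9% of DKO Fcgr4 UMIs lay in a Cxcl13-led macrophage cluster with 531 cells in DKO and 1 in TWT. In the Ctsk-led macrophage cluster Fcgr4 was at 73.7 CPM in DKO and 99.0 in TWT. The levels value for Fcgr4 therefore includes makeup within the macrophage class. Makeup values also take TWT levels from small classes and have no interval. For Fcgr1 the TWT macrophage level of 216 CPM rests on 23 UMIs in 29 cells, and in the Ctsk-led cluster it was 69.3 CPM (7 UMIs). For Fcgrt the TWT non-classical level rests on 20 UMIs in 40 cells. The split for Fcgr1 and Fcgrt is therefore uncertain.

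The cells that carried the transcripts shifted accordingly. In TWT 51.3% of Fcgr4 UMIs were in immature neutrophils and 30.2% in mature ones, whereas in DKO macrophages held 47.1%, non-classical monocytes 22.9%, immature neutrophils 7.99% and mature neutrophils 1.09%. Fcgr3 went from 43.5% in immature neutrophils, 26.5% in mature ones and 13.8% in monocytes to 31.6%, 4.59% and 32.1%. Fcgr2b, found in TWT mostly in immature neutrophils (32.4%), monocytes (22.7%) and B cells (11.7%), was in DKO in monocytes (35.2%), macrophages (24.3%) and non-classical monocytes (11.3%). Fcgr1 was a monocyte transcript in every library, with 74.4%, 73.7%, 58.3% and 75.7% of its UMIs in that class. Of Fcgrt UMIs, monocytes held 39.4% in TWT and 10.7% in DKO, where macrophages held 30.9%, non-classical monocytes 20.4% and T cells 14.8%.

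**Figure D2:**
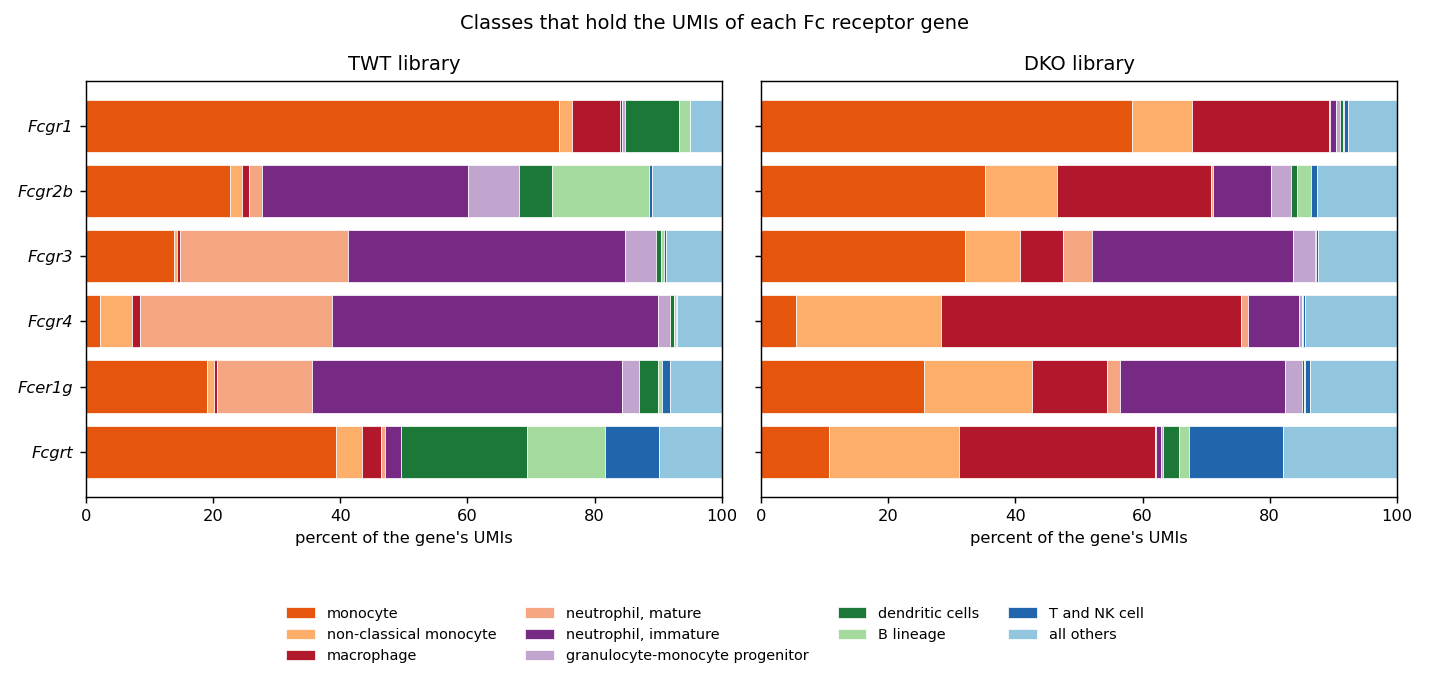
Share of each gene's UMIs (horizontal axis, percent, stacked to 100, 1 bar per gene) by group of marker-gated classes, in the libraries TWT and DKO, 1 panel each. The neutrophil segments that hold most Fcgr4 and Fcgr3 in TWT are small in DKO for Fcgr4, where macrophages hold 47.1%.

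Fcgr1 encodes the high-affinity receptor for monomeric IgG. Its levels by class, as the median over libraries, ran from macrophages (179 CPM, range 79.2 to 216) through conventional dendritic cells (60.7), monocytes (53.3) and non-classical monocytes (34.6), with the ranges of the last 3 overlapping and that of macrophages above them. The classes next in order had medians of at most 0.58 CPM, a level near that of single UMIs. In monocytes Fcgr1 was at 52.3 CPM (45.6 to 59.6, 224 UMIs) in TWT, 50.6 in IL-6 KO as labelled, 54.3 (50.8 to 58.1, 863 UMIs) in DKO and 65 (58.1 to 72.6) in TKO, and DKO over TWT came to 1.04 (0.897 to 1.21). The sums of the monocyte class were thus close between DKO and TWT, while dividing and non-dividing monocytes went in opposite directions, as given below. DKO was the library with the most monocytes, and the part of their number in the total was not tested.

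In macrophages Fcgr1 was at 216 CPM (137 to 325, 23 UMIs) in TWT, 199 (9 UMIs) in IL-6 KO as labelled, 79.2 (70.8 to 88.4, 320 UMIs) in DKO and 179 (92.3 to 312, 12 UMIs) in TKO, called lower in DKO at 0.366-fold TWT (0.240 to 0.586) and 0.443-fold TKO (0.250 to 0.867). That direction depends on how the class is drawn. With classes taken from clusters the log2 ratio to TWT, -1.45, became 0.13, and the log2 ratio to TKO, -1.17, became 0.59 (0.52 with gates applied to cells thinned to 2000 UMIs). Among non-classical monocytes Fcgr1 was at 20.2 CPM (17.0 to 23.8) in DKO and 68.5 (45.1 to 99.6, 27 UMIs) in TKO, 0.295-fold (0.194 to 0.463), with 39.0 (6 UMIs) in TWT. Conventional dendritic cells had 58.4, 75.4, 23.5 (7 UMIs) and 63.0 CPM, called lower in DKO at 0.402-fold TWT (0.147 to 0.951). This class held 26 cells in DKO, and no cluster took its name, so the call could not be set against clusters. In T cells, which are taken to lack the receptor, 0, 0, 2.54 and 0 CPM were counted. A count of 0 there allows up to 4.25 CPM.

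Fcgr3, the low-affinity receptor shared by most myeloid cells and NK cells, was highest in mature neutrophils (median 466 CPM). Basophils and mast cells (353), monocytes (274), macrophages (268), non-classical monocytes (235) and immature neutrophils (174) followed with overlapping ranges, and below them stood granulocyte-monocyte progenitors (124), conventional dendritic cells (98.3) and NK cells (62.6). Within immature neutrophils, the most frequent class, it was at 139, 175, 216 and 174 CPM as labelled TWT, IL-6 KO, DKO and TKO, 1.56-fold in DKO over TWT (1.49 to 1.63). Among monocytes the levels were 185 (172 to 198), 294, 364 (355 to 374) and 254 CPM, 1.97-fold (1.83 to 2.12) over TWT and 1.43-fold (1.35 to 1.53) over TKO. TWT was the lowest library in each of these classes, including mature neutrophils with 349, 485, 461 and 471 CPM, where DKO and TKO were at a ratio of 0.978. NK cells held 49.1, 57.8, 67.6 and 67.3 CPM, and B and T cells 6.0 to 13.9.

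Fcgr4 encodes FcγRIV, a receptor of intermediate affinity for the mouse IgG2 subclasses. It was a transcript of non-classical monocytes (median 506 CPM, range 416 to 554) and macrophages (447, range 150 to 1960), then of mature neutrophils (108) and immature neutrophils (43.2), and the first of these ranges lay within the second. In macrophages it was at 150 CPM (86.0 to 244, 16 UMIs) in TWT, 110 (5 UMIs) in IL-6 KO as labelled, 1960 (1917 to 2004, 7918 UMIs) in DKO and 447 (301 to 638, 30 UMIs) in TKO. DKO was 13-fold TWT (8.02 to 22.8) and 4.39-fold TKO (3.07 to 6.51). The macrophage-marker sum itself was 18235 and 17736 CPM in TWT and DKO, with all 14 markers seen in both, while the 12 non-classical markers summed to 959 and 2226 CPM and 10 B-cell markers to 14051 and 4991. Their part in the difference was not tested. With cells of at least 2000 UMIs alone, Fcgr4 was at 101 CPM (46.0 to 191) in 14 TWT cells, 1952 in 587 DKO cells and 39.5 (4.79 to 143, 2 UMIs) in 9 TKO cells.

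Monocytes held 6.53 CPM of Fcgr4 (4.34 to 9.44, 28 UMIs) in TWT, 16.5 (67 UMIs) in IL-6 KO as labelled, 58.2 (54.5 to 62.1, 925 UMIs) in DKO and 8.79 (43 UMIs) in TKO. DKO was above the other 3 libraries, 8.91-fold over TWT (6.13 to 13.5) and 6.62-fold over TKO (4.88 to 9.21). Fcgr4 was the only one of 5 genes above the floor called in the monocyte class against TWT, where 3.46% of 3175 genes were called higher and 10.6% lower, and against TKO, where 3.96% and 10.1% were. Fcgr4 reached the 50 CPM of the floor in DKO monocytes alone. Against TWT, whose monocytes held 28 UMIs, asking for 30 UMIs in each library leaves no call. Subtraction of free RNA leaves none either, though the log2 ratio, 3.16, was still 2.82, so that the floor and not the ratio was missed. With median-of-ratios size factors, which moved the split over all genes from 110 higher and 336 lower to 246 and 131, Fcgr2b, Fcgr3 and Fcgr4 were called. The monocyte class of DKO also held more of other cells' markers, with a macrophage-marker sum of 4735 CPM (14 of 14 markers) against 1385 in TWT (12 of 14) and an immature-neutrophil sum of 12338 against 2295 (12 of 12 in both), whose part in the Fcgr4 level was not tested.

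In the classes where Fcgr4 is a known marker, DKO and the other libraries were closer. Non-classical monocytes held 416 (320 to 531), 538, 554 (536 to 572) and 474 CPM, 1.33-fold (1.04 to 1.73) in DKO over TWT. With classes from clusters this ratio passed below 1, at a log2 value of -0.23. Mature neutrophils held 88.3 (79.7 to 97.6), 137, 102 (87.8 to 118) and 114 CPM and immature neutrophils 36.3, 42.5, 51.0 and 43.9, 1.40-fold (1.28 to 1.54) for the immature cells. B and T cells, which should lack it, had 14.3 CPM (20 UMIs) and 17.5 CPM (62 UMIs) in DKO and 0.686 to 2.30 CPM in the other libraries. Macrophage markers were higher beside it in these classes, at 1847 CPM against 408 in TWT for B cells and 169 against 27.8 for T cells (11 of 14 markers seen in each), and their part was not tested.

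Fcgr2b, the inhibitory receptor, was highest in macrophages (median 477 CPM, range 235 to 488), then in conventional dendritic cells (199) and non-classical monocytes (197, with TWT at 253 inside the macrophage range), followed by basophils and mast cells (112), monocytes (109), B cells (89.8) and granulocyte-monocyte progenitors (57.5). In monocytes it was at 114 CPM (104 to 124), 105, 180 (174 to 187) and 96.5 as labelled TWT, IL-6 KO, DKO and TKO, a DKO ratio of 1.59 (1.44 to 1.75) to TWT and 1.87 (1.69 to 2.06) to TKO. Non-classical monocytes went the other way, with 253, 211, 132 (124 to 141) and 183 CPM, a ratio to TWT of 0.521 (0.378 to 0.738), short of the call. B cells held 96.9 (85.3 to 110), 82.8, 127 (109 to 147) and 60.1 (51.5 to 69.6) CPM. There DKO was 1.31-fold TWT (1.08 to 1.60) and called higher over TKO at 2.12-fold (1.71 to 2.62).

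Macrophage Fcgr2b was at 235 CPM (152 to 347, 25 UMIs) in TWT, 508 (23 UMIs) in IL-6 KO as labelled, 488 (467 to 510) in DKO and 477 (32 UMIs) in TKO. TWT was the low library here, so that DKO was called higher over TWT at 2.08-fold (1.40 to 3.21), TKO over TWT at 2.03-fold, and DKO and TKO were at a ratio of 1.02 (0.723 to 1.5). The call over TWT was lost when genes above 1% of UMIs were left out of the total. Immature neutrophils, with 38.7, 35.9, 28.4 and 34.3 CPM, had a DKO to TWT ratio of 0.733 (0.660 to 0.814), and mature neutrophils had only 9.12 to 13.9 CPM in any library.

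Counted over the macrophage class, all 6 genes passed the floor in DKO over TWT, 3 were called higher (Fcgr2b, Fcgr4 and Fcer1g) and 1 lower (Fcgr1), among 16.7% of 3410 genes higher and 12.5% lower. In DKO over TKO 1 of 6 was higher (Fcgr4) and 1 lower (Fcgr1), with 16% and 17.2% of 3554 genes, and in TKO over TWT 2 of 5 were higher (Fcgr2b and Fcgr4), with 5.13% of 760 genes higher and 3.82% lower. Non-classical monocytes had 0 of 5 called against TWT (8.1% of genes higher, 9.34% lower, or 397 and 231 genes with median-of-ratios factors against 281 and 324) and 1 of 6 lower, Fcgr1, against TKO (4.91% and 5.71%). Conventional dendritic cells had 1 of 5 lower, Fcgr1, against TWT (5.36% and 14.8%) and against TKO (4.8% and 13.4%). Mature neutrophils had 0 of 3 called against TWT (6.62% and 8.54%) and TKO (4.82% and 9.87%), and immature neutrophils 0 of 3 (2.75% and 3.58%, and 1.79% and 2.58%). In granulocyte-monocyte progenitors 1 of 3, Fcer1g, was higher against TWT (2.25% and 8.14%) and none against TKO (1.16% and 2.28%).

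**Figure D3:**
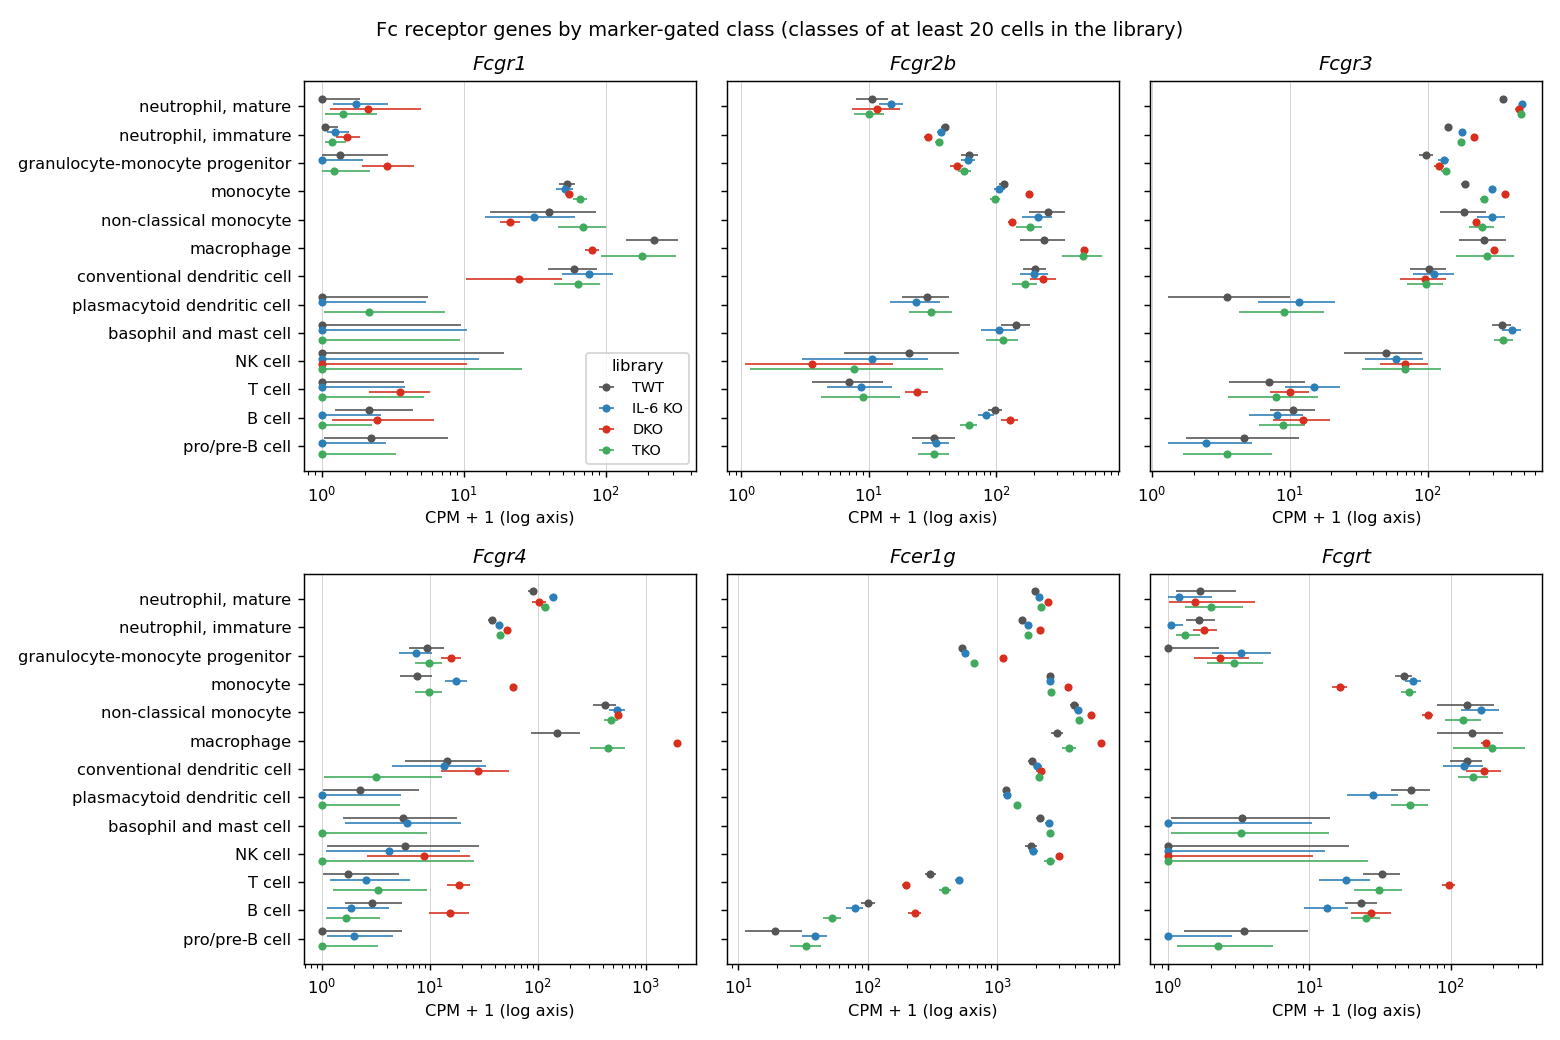
CPM + 1 on a horizontal log axis for the 6 genes (1 panel each) by marker-gated class down the vertical axis, 1 point per library as labelled, for classes of at least 20 cells in that library, with 95% exact Poisson intervals as error bars. DKO macrophages stand alone for Fcgr4 at 1960 CPM, while DKO monocytes lie below the other libraries for Fcgrt at 15.4 CPM.

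Fcer1g encodes the γ chain that FcγRI, FcγRIII and FcγRIV need at the surface. It was present in every class of myeloid leukocytes and in NK cells at 534 CPM or more outside stem cells, and DKO had the highest level in most of them. Macrophages held 2897, 2959, 6294 and 3574 CPM as labelled TWT, IL-6 KO, DKO and TKO, called higher in DKO at 2.17-fold TWT (1.94 to 2.44), and 1.76-fold TKO (1.55 to 2.01). Progenitors of granulocytes and monocytes held 534, 560, 1104 and 658 CPM, called higher at 2.07-fold TWT (1.95 to 2.19). Monocytes at 2530, 2540, 3491 and 2604 CPM and non-classical monocytes at 3913, 4174, 5317 and 4256 CPM had DKO to TWT ratios of 1.38 and 1.36, and immature neutrophils one of 1.39. The receptor chain and its partners therefore did not keep one ratio across classes.

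Lymphocyte classes carried little Fcer1g and split in direction. B cells held 100 CPM (88.2 to 113) in TWT, 77.9 in IL-6 KO as labelled, 229 (204 to 255) in DKO and 52.2 in TKO, called higher in DKO at 2.29-fold TWT (1.93 to 2.70) and 4.38-fold TKO (3.60 to 5.35), among 2.61% of 3061 genes higher and 14.4% lower against TWT and 2.67% and 15.3% against TKO. With classes from clusters the log2 ratios, 1.19 and 2.13, became 0.27 and 0.32 and were no longer called, while in the main B cell cluster alone Fcer1g was at 219 CPM in DKO against 91.6 for TWT and 35.4 for TKO. The cluster classes also hold a small cluster where TWT had 1196 CPM and TKO had 1317. In gated B cells the 14 macrophage markers summed to 408, 335, 1847 and 101 CPM, and their part was not tested. T cells held 302, 504, 196 and 393 CPM, 0.649-fold TWT (0.573 to 0.736) and called lower against TKO at 0.500-fold (0.438 to 0.570), a call lost with median-of-ratios factors. Against TWT those factors moved the split over all genes from 80 higher and 441 lower to 187 and 193 in B cells and from 117 and 257 to 236 and 133 in T cells. Within T cells, those with neither Cd4 nor Cd8 counts held 545, 874, 503 and 621 CPM and cells with Cd8 counts alone 117, 91.0, 134 and 218.

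Fcgrt moved in opposite directions in monocytes and T cells. Monocytes held 45.5 CPM (39.3 to 52.3, 195 UMIs) in TWT, 52.8 (46.0 to 60.4) in IL-6 KO as labelled, 15.4 (13.5 to 17.4, 244 UMIs) in DKO and 49.3 (43.2 to 55.9) in TKO. The DKO level was 0.338-fold TWT (0.279 to 0.410) and 0.312-fold TKO (0.260 to 0.374), where the gene missed the 50 CPM floor, and called lower against IL-6 KO at 0.291-fold (0.241 to 0.351), the 1 lower call beside Fcgr4 higher among 6 genes (background 4.88% higher, 14.3% lower). Non-classical monocytes held 130, 162, 67.4 and 122 CPM, 0.518-fold TWT (0.332 to 0.856), and macrophages 141, 287, 175 and 194 CPM. Neutrophils of either class had at most 1.01 CPM. NK cells had no UMI in any library, where a count of 0 allows up to 9.59 CPM in DKO and 24.8 in TKO.

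T cells held 31.6 CPM of Fcgrt (22.7 to 42.7) in TWT, 17.0 in IL-6 KO as labelled, 95.3 (85.4 to 106) in DKO and 29.9 (19.6 to 43.9) in TKO. DKO was called higher at 3.02-fold TWT (2.19 to 4.26) and 3.18-fold TKO (2.13 to 4.94), 1 of 2 genes above the floor, among 3.94% of 2973 genes higher and 8.64% lower against TWT and 1.81% and 7.31% against TKO. Fcgrt reached the 50 CPM of the floor in DKO T cells alone. Cells with Cd8a or Cd8b1 and no Cd4 held most of it, at 67.0 CPM (47.9 to 91.3), 37.9 (23.1 to 58.5), 115 (103 to 128) and 59.5 (38.1 to 88.5), against 1.46 to 7.18 CPM in cells with none of these genes. These Cd8-only cells were 36.9%, 35.4%, 74.9% and 40.1% of the T cell class, so both their number and their level were highest in DKO. Macrophage markers summed to 169 CPM in DKO T cells and 27.8 in TWT, and their part in the difference was not tested.

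**Figure D4:**
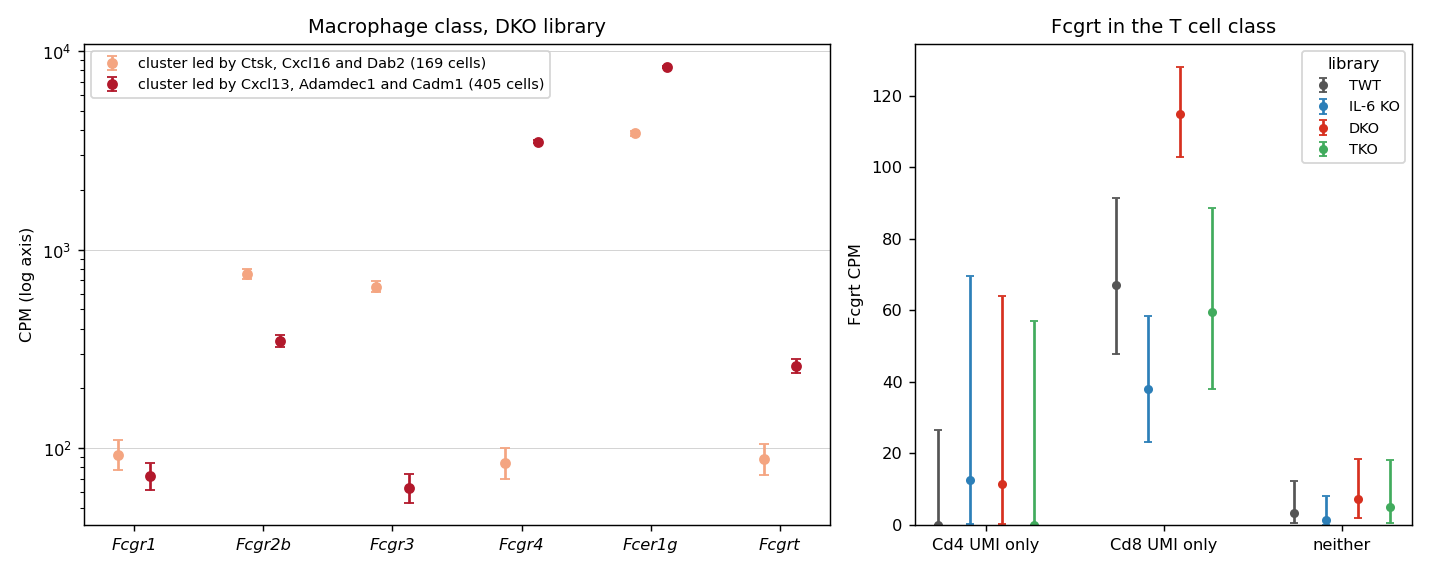
Left, CPM (log axis) of the 6 genes in the 2 main clusters of the DKO macrophage class, 169 cells led by Ctsk, Cxcl16 and Dab2 and 405 cells led by Cxcl13, Adamdec1 and Cadm1. Right, Fcgrt CPM (linear axis) in T cells split by Cd4 and Cd8 counts for the 4 libraries as labelled, with 95% exact Poisson intervals as error bars in both panels; Cd8-only cells are the highest subset in each library, at 115 CPM in DKO.

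The macrophage class of DKO was made of unlike cells. Clusters drawn without the Fc receptor genes put 405 of its 617 cells (65.6%) in a cluster led by Cxcl13, Adamdec1, Cadm1 and Itgad, and 169 (27.4%) in a cluster led by Ctsk, Cxcl16, Dab2 and Tmem37. The first held 3506 CPM of Fcgr4 (3428 to 3585), 63.0 of Fcgr3 (53.0 to 74.4) and 346 of Fcgr2b (322 to 371). The second held 84.2 of Fcgr4 (69.9 to 100), 650 of Fcgr3 (610 to 693) and 753 of Fcgr2b (709 to 799). FcγRIV and FcγRIII transcripts were thus split between macrophages of a single library, each low where the other was high.

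The same split was seen in the other genes. Fcer1g was at 8314 CPM in the Cxcl13-led cells and 3858 in the Ctsk-led cells, and Fcgrt at 260 (239 to 282) and 88.3 (73.7 to 105). Fcgr1 differed least, at 72.5 (61.7 to 84.7) and 92.4 (77.4 to 109). The Cxcl13-led cluster as a whole, with cells of any class, had 531 cells in DKO (5.52% of the library), 1 in TWT, 0 in IL-6 KO and 5 in TKO, and held 55.9% of the DKO library's Fcgr4 UMIs, 28.4% of its Fcgrt, 10.3% of its Fcer1g and 1.13% of its Fcgr3. The Ctsk-led cluster was present in all libraries, with 28, 17, 332 and 22 cells. There Fcgr4 was at 99.0 CPM in TWT (10 UMIs), 73.7 in DKO (227 UMIs) and 40.4 in TKO (3 UMIs). A cluster that is nearly all from 1 library may be a property of that library, which cannot be told apart from the genotype here.

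Resident marrow macrophages clear spent cells and carry Vcam1, Spic, Cd5l and Timd4. Macrophages with at least 2 of these genes were 15 of 29 in TWT (51.7%), 9 of 17 in IL-6 KO (52.9%), 11 of 617 in DKO (1.78%) and 1 of 23 in TKO (4.35%). Their number in DKO was thus close to that in IL-6 KO, in a class of 617 cells. They held 495 CPM of Fcgrt in TWT (247 to 886, 11 UMIs), 594 in IL-6 KO (9 UMIs) and 211 in DKO (125 to 333, 18 UMIs), against 47.6 (13 to 122, 4 UMIs), 133 (4 UMIs) and 175 (162 to 188) in the other macrophages. Among macrophages with fewer than 2 of these genes Fcgr4 was at 143, 133, 1967 and 456 CPM, much as over the whole class.

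Monocytes and neutrophils also fell in different clusters by library. The monocyte class was mostly in a pair of clusters in TWT (74.8% and 22.0%), IL-6 KO and TKO, while in DKO 91.3% (1463 cells) were in a cluster led by Saa3, Vcan, F10 and Trem2. That cluster held 0, 1, 1822 and 4 cells of any class, and 59.9% of the Fcgr1, 36.4% of the Fcgr2b, 36.5% of the Fcgr3 and 7.44% of the Fcgr4 UMIs of DKO. Of DKO mature neutrophils 82.2% were in a cluster led by Stfa2 and Stfa3, and of immature ones 56.6% in a cluster led by Ifitm6 and Scrg1, which held 31, 13, 1610 and 57 cells of any class. The immature cluster led by Trp53inp2 and Ly6g was present in all libraries (712, 851, 49 and 795 cells of the class), and there Fcgr3 was at 156, 196, 205 and 199 CPM, Fcgr4 at 43.3, 49.8, 62.9 and 56.5, Fcgr2b at 32.1, 30.5, 33.1 and 29.6, and Fcer1g at 1866, 2065, 2362 and 2074. In this cluster the DKO value of Fcgr2b rests on 10 UMIs in 49 cells. That is too few to tell the ratio below 1 of the whole class from no difference. In the non-classical class 80.6% to 88.7% of the cells of each library shared 1 cluster, and within it Fcgr4 was at 573, 719, 586 and 582 CPM and Fcgrt at 179, 196, 81.2 and 139. A further 60 DKO cells of the class lay in the Cxcl13-led cluster with 3223 CPM of Fcgr4 (2974 to 3486), and 187 in the Saa3-led cluster with 170. So the higher Fcgr4 of DKO over TWT was not seen in the cluster that all libraries shared.

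Dividing and resting cells of a class differed in these genes too. A cell was taken as dividing with at least 3 of 12 cell cycle markers, which held for 30.5%, 29.1%, 14.2% and 32.8% of monocytes. Non-dividing monocytes held 69.1, 74.2, 55.6 and 96.6 CPM of Fcgr1 and dividing ones 26.6, 18.6, 49.0 and 26.4. Fcgr4 was at 68.1 CPM in non-dividing and 17.0 in dividing DKO monocytes, both above the 8.87 and 2.95 of TWT, and Fcgrt at 17.2 and 7.51 in DKO against 49.4 and 39.5. The distance between DKO and TWT was therefore present in both. In immature neutrophils, of which 24.2% to 25.2% were dividing, Fcgr2b was at 37.7 to 51.2 CPM in dividing and 22.9 to 31.0 in non-dividing cells, and Fcgr3 at 79.0 to 114 and 182 to 277.

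The ratio of activating to inhibitory transcripts, the UMIs of Fcgr1, Fcgr3 and Fcgr4 together over those of Fcgr2b, was taken next. Since 3′ counts depend on each gene's transcript end, the ratio is read between libraries and classes and not as a number of receptors. Over all cells it was 3.41 (3.25 to 3.58) in TWT, 5.14 (4.90 to 5.39) in IL-6 KO as labelled, 4.47 (4.36 to 4.58) in DKO and 5.10 (4.87 to 5.34) in TKO. DKO lay between TWT and the libraries labelled IL-6 KO and TKO, but with another composition. Its Fcgr4 to Fcgr2b ratio was 2.07 against 0.593, 0.930 and 0.880 in TWT, IL-6 KO and TKO, and its Fcgr3 to Fcgr2b ratio 2.22 against 2.67, 4.08 and 4.02, while Fcgr1 to Fcgr2b was 0.131 to 0.195 in all.

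Classes differed far more than libraries. Mature neutrophils were at 45.3 (33.4 to 63.1), 44.6, 53.3 (33.9 to 88.8) and 64.3, immature neutrophils at 4.54 (4.18 to 4.93), 6.07, 9.45 (8.76 to 10.2) and 6.34 (5.86 to 6.86), and progenitors at 1.73 to 2.83. Conventional dendritic cells were at 0.614 to 1.0 and B cells at 0.096 to 0.213, so that Fcgr2b counts matched or exceeded the activating ones. The pro/pre-B, plasma and plasmacytoid dendritic classes were also below 1 in TWT, at 0.154, 0.0426 and 0.136, on 2 to 4 activating UMIs each. In monocytes the ratio was 2.15 (1.93 to 2.39), 3.43 (3.08 to 3.83), 2.65 (2.53 to 2.76) and 3.40 (3.06 to 3.77), so DKO was above TWT and below IL-6 KO and TKO. The DKO monocytes took their place with both more Fcgr2b and more Fcgr3 than TKO monocytes.

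Non-classical monocytes had the ratio highest in DKO, at 6.03 (5.62 to 6.48) against 2.51 (1.72 to 3.74) in TWT, 4.07 in IL-6 KO and 4.32 (3.33 to 5.66) in TKO. Macrophages did too, with 4.80 (4.57 to 5.04) against 2.64 (1.64 to 4.37), 1.22 and 1.88 (1.20 to 2.98). That DKO value joined 2 extremes, 10.5 (9.77 to 11.4) in the Cxcl13-led cells and 1.10 (1.01 to 1.19) in the Ctsk-led cells. The 76 DKO cells of the monocyte class that lay in the Ctsk-led cluster were close to the latter, at 1.14, while the Saa3-led monocytes were at 2.88 (2.75 to 3.02).

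**Figure D5:**
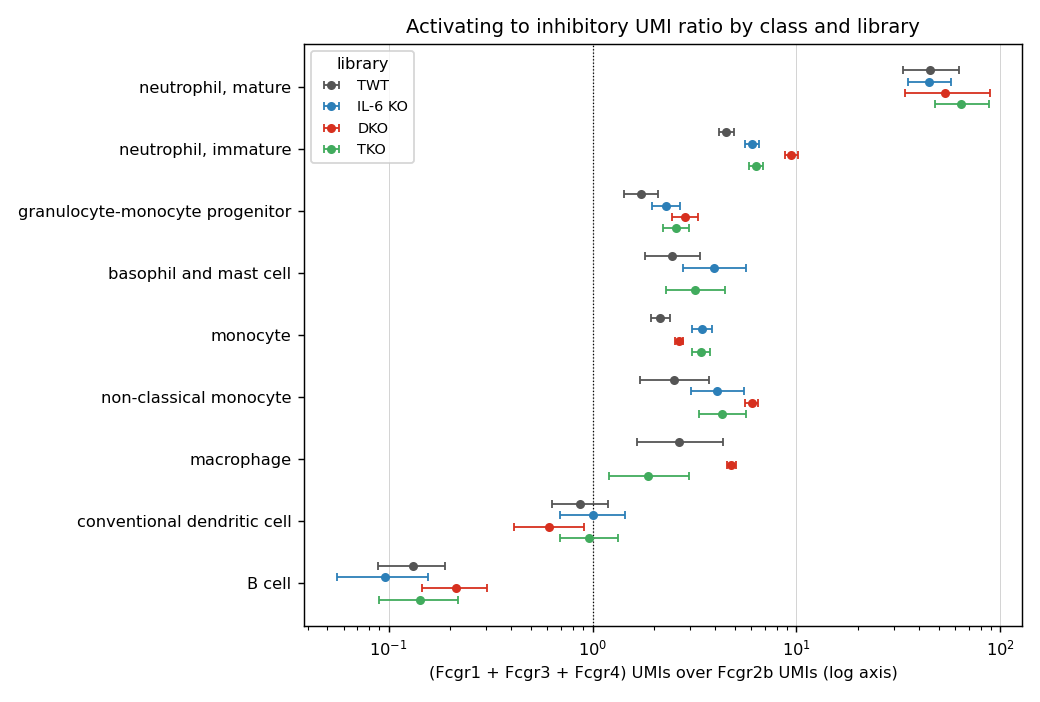
Ratio of activating (Fcgr1, Fcgr3 and Fcgr4) to inhibitory (Fcgr2b) UMIs on a horizontal log axis by marker-gated class (vertical axis) and library as labelled, with 95% exact intervals as error bars and a line at 1. Mature neutrophils lie at 44.6 to 64.3, B cells below the line at 0.096 to 0.213, and DKO is highest in macrophages and non-classical monocytes.

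Shares of cells with a UMI were compared after each cell was thinned to 2000 UMIs. Fcgr4 was seen in 1.20% of TWT monocytes (0.44 to 2.58), 4.90% in IL-6 KO as labelled, 11.6% in DKO (10.1 to 13.3) and 1.44% in TKO (0.624 to 2.82), or 4.33%, 10.2%, 34.3% and 6.60% unthinned at median depths of 7205 to 9706 UMIs. The background that T cells give was 0.329%, 0.338%, 3.42% and 0.524% thinned, or 0.295%, 0.643%, 6.29% and 0.990% unthinned at 3564 (DKO) to 4013.5 UMIs, and B cells had 2.30% in DKO thinned. DKO monocytes were thus above that background and DKO T cells were themselves above other T cells. Of DKO macrophages 67.1% (63.2 to 70.9) had a UMI of Fcgr4 after thinning (78.4% unthinned), a share near that of non-classical monocytes (50%, 64.2%, 59.8% and 60.7%), while of macrophages deep enough to thin 2 of 14, 2 of 5 and 1 of 9 had one in TWT, IL-6 KO and TKO.

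The other genes gave smaller differences in thinned cells. Fcgr1 was seen in 11.4%, 10.0%, 9.02% and 12.3% of monocytes, with at most 0.380% of T cells as background. Fcgr3 was seen in 34.1%, 43.5%, 48.0% and 41.8% of monocytes and 49.4% to 60.3% of mature neutrophils, against 0.524% to 4.05% of T cells. Inhibitory Fcgr2b was seen in 20.9%, 19.4%, 27.6% and 18.7% of monocytes and 16.6%, 15.5%, 21.5% and 10.2% of B cells, against 1.01% to 3.54% of T cells. Fcgrt, in 8.37%, 8.78%, 3.28% and 8.83% of monocytes and 4.28%, 2.36%, 11.9% and 3.14% of T cells, crossed over between the classes, with at most 0.336% of neutrophils as background. Fcer1g was found in 99.1% to 99.7% of monocytes and in 9.04%, 9.84%, 29.2% and 6.46% of B cells.

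The share of cells with both activating and inhibitory transcripts differed widely between classes. Of thinned monocytes 10.2%, 10.0%, 17.5% and 10.6% held both Fcgr2b and an activating receptor, and 31.5%, 40%, 38.6% and 38.9% an activating receptor alone. In DKO macrophages 39.2% held both, 49.6% activating receptors alone, 6.99% Fcgr2b alone and 4.26% neither. B cells with a receptor were mostly Fcgr2b alone (16.6%, 15.3%, 19.9% and 10.2%, against 0.312% to 2.30% with an activating receptor alone). In DKO 78 B cells held Fcgr2b alone, 9 an activating receptor alone and 6 both. Mature neutrophils with a receptor were nearly all activating alone (55.5% to 66.7%, with 0.709% to 1.71% holding both).

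Heavy chains of IgG, the ligands, were mostly lower in DKO over all cells. Ighg2c, the heavy chain of the IgG2c of this strain, had 20143 UMIs in TWT, 22451 in IL-6 KO as labelled, 42 in DKO and 2 in TKO. Ighg2b had 80336, 31762, 6577 and 13623 UMIs (1859, 671, 85.9 and 279 CPM), and Ighg1 had 5181, 4153, 40 and 9259. All 3 were called lower in DKO over TWT, at 0.00118-fold, 0.0462-fold and 0.00436-fold, and 0 of 3 higher. Ighg3, with 56, 17066, 234 and 25 UMIs, was high in IL-6 KO alone and at 1.30 CPM in TWT and 3.06 in DKO. Plasma cells, which make these chains, numbered 91, 84, 5 and 36. Within them Ighg2b was at 32949, 11016, 51310 and 14969 CPM as labelled TWT, IL-6 KO, DKO and TKO. In the same order Ighg1 was at 2155, 2163, 0 (0 to 30.1) and 10220 CPM. Ighg2c was at 7328, 8675, 49.0 (6 UMIs) and 2.23 (2 UMIs), so it was low in TKO as well as in DKO. The 5 DKO cells were below the minimum of 20 cells for a comparison. The intervals cover the counting of UMIs and not which few plasma cells were sampled, so these values give no level per plasma cell for DKO.

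The other genes of the pathway were counted over all cells in lists of 120 genes found in the files. In DKO over TWT the median log2 ratio of all genes measured was 0.12, with 6.57% of them called higher and 5.42% lower. Of receptors that use the γ chain, 1 of 4 measured was higher, Clec4e, the receptor for mycobacterial cord factor, at 57.4, 81.5, 193 and 59.0 CPM (3.36-fold). Of ITAM kinases and adaptors 1 of 13 was higher and none lower, with Syk at 0.602-fold. Inhibitory phosphatases and adaptors had 0 of 7 called, Ptpn6, encoding SHP-1, at 1.58-fold and Inpp5d, encoding SHIP-1, at 0.784-fold. Phagocytic and killing effectors had 0 of 15 called, with a median of 0.32 and Ncf4, an oxidase subunit, at 1.89-fold.

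Other inhibitory receptors had 2 of 11 higher, Cd300a at 2.53-fold and Lair1 at 2.22-fold, and 1 lower, the B cell receptor Siglecg at 0.170-fold. Myeloid transcription factors had 4 of 9 higher, among them Cebpb at 3.46-fold and Klf4 at 2.83-fold, and 1 lower, Irf8 at 0.397-fold. Only 6 factors passed the floor in TKO over TWT and 6 in IL-6 KO over TWT. Some of the 9 therefore did so through their DKO level alone, and the count was partly set by the floor. That holds for the 9 counted against TKO as well. Partners and other ITAM adaptors had 0 of 5 higher and 2 lower, the B cell receptor chains Cd79a at 0.317-fold and Cd79b at 0.289-fold. No gene was called among the 2 measured of the interferon list, and no gene of the other Fc-like receptors passed the floor. In DKO over TKO, with a median of 0.03 and 5.52% higher and 5.71% lower over all genes, the counts were 0 higher and 2 lower of 2 IgG chains, 0 and 2 of 5 adaptors, 0 and 1 of 1 Fc-like receptor, 1 and 0 of 4 γ-chain users, 2 and 1 of 11 inhibitory receptors and 3 and 1 of 9 factors, and none of 12 kinases, 8 phosphatases, 15 effectors and 2 interferon genes.

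Within monocytes 4 of 5 γ-chain users were higher in DKO over TWT, where 3.46% of all genes were, with a median log2 ratio of 2.79 beside -0.19 for all genes measured, and 4 of 5 in DKO over TKO, with a median of 2.81. In TKO over TWT only 1 γ-chain user passed the floor, and Clec4e, Clec4d and Cd300lf reached 50 CPM in DKO alone. These counts and medians were therefore partly set by the floor. The DKO monocyte class also held more of the markers of other cells, at 12338 CPM against 2295 in TWT for immature neutrophils, 2832 against 1283 for mature neutrophils (12 of 12 seen in both for each) and 4735 against 1385 for macrophages, and Clec4d was among the leading genes of a mature neutrophil cluster. Their part in these levels was not tested. Clec4e was at 25.7, 20.5, 315 and 20.9 CPM, 12.3-fold TWT (10.2 to 15), its partner Clec4d at 13.3, 19.5, 98.0 and 13.1 CPM (7.37-fold) and Cd300lf at 25.2, 13.8, 60.9 and 19.6 CPM (2.42-fold), while Pira2 was at 0.971-fold. Kinases had 0 of 16 higher and 1 lower (Pik3cd at 0.475-fold, with Syk at 0.572-fold), phosphatases 0 of 10 and effectors 0 of 14 called. Inhibitory receptors had 2 of 9 higher, Lair1 at 4.55-fold among them. Only 6 of these receptors passed the floor in TKO over TWT, so some of the 9 did so through their DKO level alone. Factors had 0 of 9 higher and 2 lower, among them Irf8 at 0.381-fold, with Cebpb at 1.97-fold just short of the call, and in DKO over TKO 1 of 10 higher and 4 lower.

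Over 58 sums of a class in a library with at least 20 cells, the genes whose log2(CPM + 1) ran most like each receptor were found among 7448 genes by Pearson's r. The sums share libraries and depth, so r is a description. Fcgr1 ran with Slamf8 (0.945), Clec4b1 (0.939), Aif1 (0.932) and Clec4a3 (0.931). Fcgr4 ran with the non-classical marker Treml4 (0.900), Cd300ld (0.889), Pilrb1 (0.883), Slc11a1 (0.873) and Pilra (0.869). Fcgr3 ran with Itgam (0.927), Apobr (0.896), Myo1f (0.880), Anxa2 (0.877) and Igsf6 (0.874).

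The other 3 genes had other company. Fcer1g ran with Tyrobp, the other common ITAM adaptor of myeloid cells (0.952), Anxa2 (0.937), Myo1f (0.928), Itgb2 (0.914) and Apobr (0.903). Fcgr2b had lower values, with BC028528 (0.837), Ctsz (0.808), Hfe (0.806) and Rassf4 (0.792), as had Fcgrt with Mob3b (0.865), Fam69a (0.839), Ctsa (0.834), Ptpro (0.831) and P2ry6 (0.820). Between members, r was highest for Fcgr3 with Fcer1g (0.868) and lowest for Fcgr3 with Fcgrt (0.193).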

How the data were processed

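The data are 4 single-cell RNA libraries of bone marrow, 1 per genotype. The authors deposited whole UMI counts for each gene in each cell, made with Cell Ranger (3.0.2 per the file headers) on mm10, from DNBseq reads, and the submitters' processing notes name Seurat 4. No normalization had been applied. The members and gene lists were chosen with earlier results of these data known.

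The filter of the study's methods was used (500 to 4000 genes, mitochondrial UMIs up to 15%). A cell joined 1 of 17 classes by a set number of detected markers (such as 2 of C1qa, C1qb and C1qc for macrophages, 4 of 8 genes for monocytes), no Fc receptor gene being used. Scrublet called 1.97% to 2.25% of cells doublets, which were kept. UMIs were summed per library and class (at least 20 cells) as CPM with exact Poisson intervals. Ratios have exact conditional binomial intervals and shares Clopper-Pearson intervals, at 95%. UMIs correct for PCR copies, and intervals cover counting error only. Median log2 ratios of the lists and the marker folds of classes and clusters have a pseudocount of 1 CPM. Ratios of the members, also on the log2 scale, have none. No test between genotypes was possible. Depth per library and the precision it gives are in the report. Python 3.11.15, numpy 2.4.6, scipy 1.17.1, pandas 2.3.3, scanpy 1.11.5 and matplotlib 3.10.9 were used, and scripts were tested on simulated data.

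Genes named were the 6 members, the genotype and gate genes, up to 4 genes of each of 10 lists with the most different log2 ratio of DKO to TWT over all cells among those above the floor, and for each member the 5 genes with the highest r. Some genes that this rule names are not reported here. Leading genes of clusters were named after their values were seen. Alternatives were other cell filters, scalings, floors, thinning depths, class definitions, doublet removal and subtraction of free RNA.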

Additional observations from a re-analysis of the deposited data

Results flagged for a closer look

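Fcgrt was in opposite directions in a pair of classes under the same contrast. In DKO over TWT it was 3.02-fold in T cells and 0.338-fold in monocytes, and in DKO over TKO 3.18-fold and 0.312-fold. Fcer1g was 4.38-fold in B cells and 0.500-fold in T cells in DKO over TKO. With 1 library per genotype the difference between the classes was not tested.

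The barcodes outside the gene and mitochondrial limits, 1629, 1164, 1239 and 1453 as labelled TWT, IL-6 KO, DKO and TKO (646, 423, 275 and 588 of them above 4000 genes), were in no comparison and also held the receptors at higher levels in DKO than in TWT. Fcgr1 was at 15 CPM in DKO and 1.41 in TWT, Fcgr2b at 85.2 and 28.5, Fcgr3 at 174 and 59.8, Fcgr4 at 95.2 and 3.01, Fcer1g at 1945 and 428, and Fcgrt at 21.2 and 8.62.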

How the results depend on the processing

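No paired analysis was possible because each genotype had 1 library. Over all cells 3 genes were called in DKO over TWT, 1 (Fcgr4) with genes above 1% of UMIs left out of the total, 4 with median-of-ratios factors (Fcgr3 added) and 5 with no floor, and in DKO over TKO 2 were called, 3 with those factors (Fcer1g added) and 4 with no floor. In monocytes, where 1 gene was called in DKO over TWT, the count was 2 with the sole filter of 200 genes per cell (Fcgr3 and Fcgr4), 3 with median-of-ratios factors (Fcgr2b, Fcgr3 and Fcgr4), 2 with no floor (Fcgr4 higher, Fcgrt lower), 0 with free RNA subtracted and 0 with 30 UMIs asked of each library. The activating to inhibitory ratio of DKO monocytes, 2.65, was 2.95 with classes from clusters and 2.85 with free RNA subtracted. The share of cells with Fcgr4 went from 1.20% to 3.47% (thinned to 4000 UMIs) and 4.33% (unthinned) in TWT monocytes, from 11.6% to 17.9% and 34.3% in DKO monocytes, and from 67.1% to 78.4% (unthinned) in DKO macrophages. The log2 ratio of Fcgr1 in macrophages reversed, from -1.45 to 0.13 against TWT with classes from clusters, and from -1.17 against TKO to 0.59 there and 0.52 with gates on thinned cells. The causes were not tested. Fcgr4 in macrophages against TKO, 2.13 on the log2 scale, was 5.63 in cells of at least 2000 UMIs, 5.17 with gates on thinned cells and 1.26 as the mean of each cell's CPM. Of 486 alternative values of 66 member log2 ratios, 370 lay within the counting interval of the main value, 3 had the opposite sign to a called value, and 113 lay outside the interval with the same sign or for a ratio that was not called. Median-of-ratios factors shifted the median gene by 0.21 on the log2 scale in DKO over TWT, 0.18 in DKO over TKO and 0.36 in monocytes, and in DKO over TKO moved the split of calls from 148 higher and 153 lower to 210 and 86, against 151 and 297 without genes above 1%. The demand for 30 UMIs in each library, the 2000 UMI limit and the alternatives in classes other than monocytes were chosen after seeing the data.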
